A study of Mus musculus with 16 samples.

Results

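The phagocyte NADPH oxidase is the enzyme with which neutrophils, monocytes and macrophages make superoxide. Its core lies in the membrane as a pair of proteins, gp91phox (gene Cybb) and p22phox (gene Cyba). The core is silent until cytosolic proteins move to it, among them p47phox (Ncf1), p40phox (Ncf4) and a Rac GTPase such as Rac2. The oxidase is best known for the killing of microbes by phagocytes, and loss of its activity causes chronic granulomatous disease. The genes described here are Cybb, Cyba, Ncf1, Ncf4 and Rac2. They were found as all array probes whose printed gene name was one of these 5 symbols, which gave 6 probes (2 of Cyba and 1 of each other gene) out of 39429 probes on the array. All 6 were well above background on all 16 arrays, none was saturated on any array, and all 6 were among the 27432 probes tested.

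The arrays measured bulk RNA from sorted bone marrow (BM) progenitors of female C57/Bl6 mice. Macrophage-dendritic cell progenitors (MDPs) and common dendritic cell progenitors (CDPs) came either from age-matched tumor-free mice or from mice that carried PyMT-B6 tumors in the mammary fat pad, grown to a diameter of 1.5 cm. PyMT-B6 is a single cell line, made from a mammary tumor of the MMTV-PyMT model on the same strain, so the tumor groups model that line only. Each of the 4 groups had 4 samples, labelled replicates 2 to 5, each pooled from a pair of mice and labelled with Cy5 on its own array. Fewer cells that express a gene and less RNA per cell cannot be told apart in such samples.

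The sort was checked against its own markers. Kit, the stem cell factor receptor that MDPs carry at a high level, was lower in CDPs than in MDPs by a log2 change of -2.59 in tumor-free mice (limma adjusted p = 3.8e-06) and of -3.81 in PyMT-B6 mice (limma adjusted p = 1.05e-07). Kit was also lower in CDPs of PyMT-B6 than of tumor-free mice, by a log2 change of -1.34 (limma adjusted p = 0.00441), where Cd34 and Cx3cr1, further markers of these progenitors, differed by -0.91 and -1.27 (limma adjusted p = 0.0612 and 0.148). Csf1r and Flt3, receptors by which both progenitors are sorted, were well above background on 4 of 4 arrays in every group. In CDPs they differed between tumor states by -0.21 and -0.79 (limma adjusted p = 0.721 and 0.299). The 16 arrays sat on 4 slides. Slides 2 and 3 held 1 sample of each group, slide 1 held no CDPs from PyMT-B6 mice and slide 4 held no MDPs from PyMT-B6 mice. The share of spots well above background ran from 59.0% to 71.6% over the arrays, with 59.0% to 64.3% on slide 1 and 69.5% to 71.6% on slide 4. Because of this, the subunit changes that the results turn on are also given with the slide as a block in the fit or within the slides that held both groups.

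All levels are log2 processed signals minus the 75th percentile of the same array, so a level of 0 is that percentile. Levels of different probes are not set against each other. A change is called where limma, fitted to all 16 arrays and adjusted over all tested probes by Benjamini-Hochberg, gave a false discovery rate under 0.05 and the fold was above 1.5. Single probes also have an exact two-sided permutation p, which cannot go below 0.0286 with 4 samples against 4.

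Cybb rose from MDPs to CDPs in both kinds of mice, and Cyba and Ncf4 passed the same test in PyMT-B6 mice. In PyMT-B6 mice 3 of the 5 genes were called (Cybb, Cyba and Ncf4), at a background of 7.24% of all tested probes, and the median change of all tested probes was 0.19. Cybb alone was called there without the 4 arrays of slide 1, and also when any 1 of PyMT-B6 MDP replicates 2 and 4 and PyMT-B6 CDP replicates 2 and 3 was left out. In tumor-free mice 1 of the 5 was called (Cybb), at a background of 6.07% and a median of 0.02. No subunit was called in PyMT-B6 mice against tumor-free mice, neither in CDPs, where 1.79% of tested probes were called, nor in MDPs, where 0.062% were. At an unadjusted limma p under 0.05, Cybb and Ncf4 passed in CDPs, beside 13.7% of tested probes, and Cybb in MDPs, beside 10.4%. None of the 5 was called for a difference of the tumor change between CDPs and MDPs, which is also the difference of the change from MDPs to CDPs between tumor states and for which 0.0146% of tested probes were called, and none of the 5 had an unadjusted p under 0.05 there, beside 4.05% of tested probes. The comparisons share groups and are not independent of each other.

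**Figure D1:**
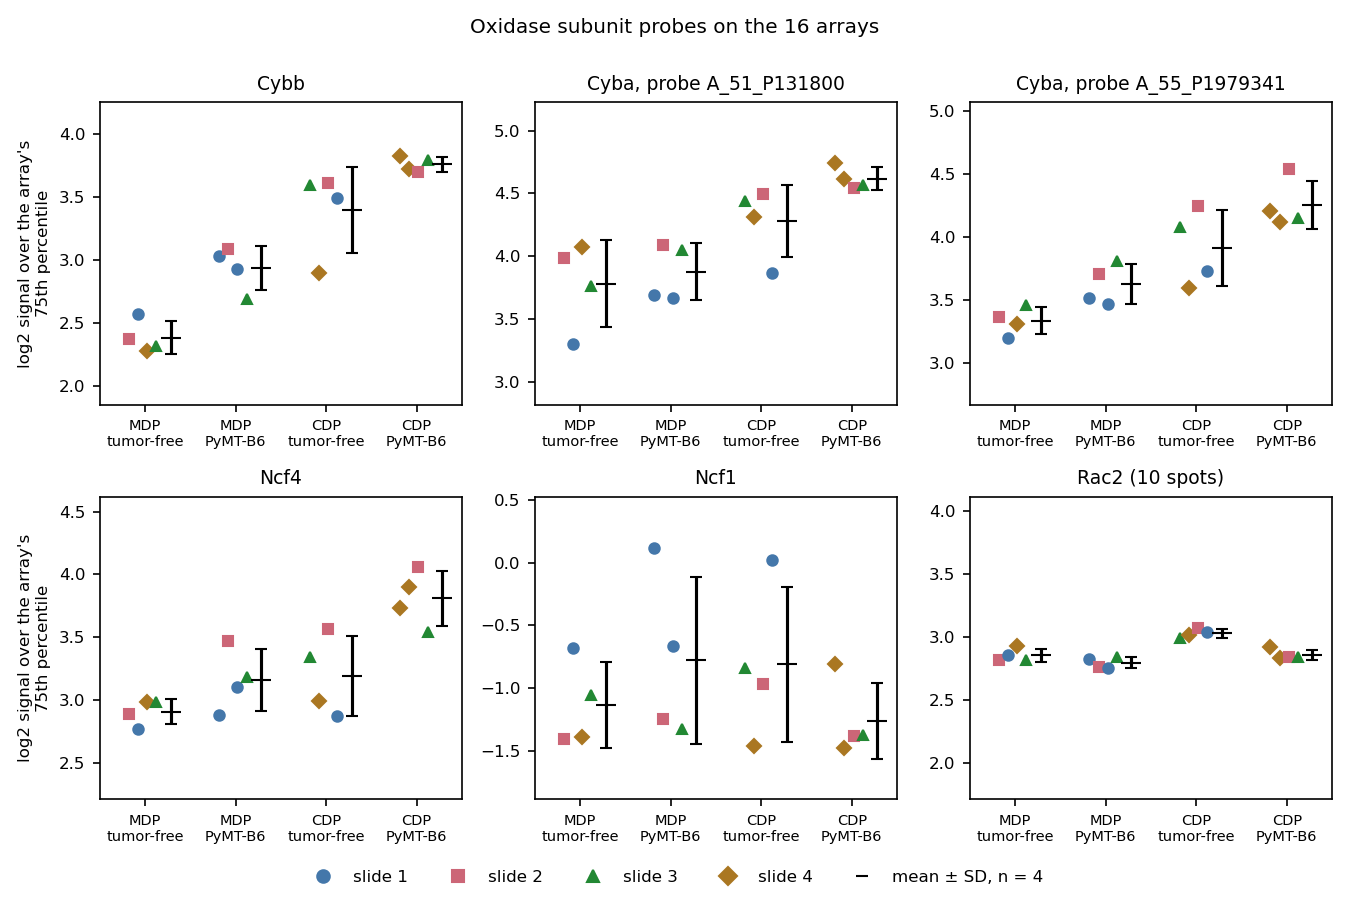
Levels of the 6 probes on the 16 arrays, as log2 processed signal over the 75th percentile of the array (vertical axis, the same span in each panel), for the 4 groups on the horizontal axis; each point is a sample, its shape and color give the slide, and the bars are the mean ± SD of 4 samples. Mean Cybb levels run from 2.39 in tumor-free MDPs to 3.76 in PyMT-B6 CDPs, Ncf1 is high on slide 1, and Rac2 spans 2.75 to 3.07.

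Cybb encodes the catalytic, electron-carrying chain of the oxidase. Its probe, A_55_P2082733, is placed by the array files on mouse build mm9 at chrX:9013216-9013275 on the minus strand. The placement in an exon, an intron or the transcript's end was not analysed here for any of the probes, since no annotation of mm9 was used. Cybb levels in MDPs were 2.38, 2.57, 2.28 and 2.32 in tumor-free replicates 2 to 5, and 3.04, 3.09, 2.93 and 2.70 in PyMT-B6 replicates 2 to 5. In CDPs they were 3.60, 2.90, 3.62 and 3.49 in tumor-free mice and 3.83, 3.73, 3.70 and 3.80 in PyMT-B6 mice. The order of the group means was thus tumor-free MDPs (2.39 ± 0.13), PyMT-B6 MDPs (2.94 ± 0.17), tumor-free CDPs (3.40 ± 0.34) and PyMT-B6 CDPs (3.76 ± 0.061; SD, n = 4 each). Neighbors in that order did not overlap, except that tumor-free CDP replicate 3, at 2.90, lay within the range of the PyMT-B6 MDPs.

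Cybb rose from MDPs to CDPs in both kinds of mice. The change was 1.02 (SE 0.16, 2.02-fold, limma adjusted p = 0.00191) in tumor-free mice and 0.82 (SE 0.16, 1.77-fold, limma adjusted p = 0.00788) in PyMT-B6 mice, and the groups did not overlap in either. Of all tested probes 13.3% were without overlap in tumor-free mice and 14% in PyMT-B6 mice. On the 4 slides that held tumor-free MDPs and CDPs the difference was 0.92, 1.24, 1.28 and 0.62, and on the 2 slides that held PyMT-B6 samples of both it was 0.61 and 1.101. With the slide as a block the changes were 1.02 (limma adjusted p = 0.000857) and 0.98 (limma adjusted p = 0.00434). The call in PyMT-B6 mice was lost with the deposited log2 table (0.70, limma adjusted p = 0.0511). In the tumor-free comparison 95.7% of tested probes had a smaller change than Cybb, against 76.9% in PyMT-B6 mice. In PyMT-B6 mice the median change of all tested probes was 0.19 in the main fit and -0.016 with the slide as a block.

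Between tumor states Cybb was not called. In MDPs the PyMT-B6 samples were higher by 0.55 (95% interval 0.20 to 0.90, SE 0.16, limma adjusted p = 0.297), and the 4 PyMT-B6 samples all lay above the 4 tumor-free samples (exact permutation p = 0.0286). In CDPs the difference was 0.36 (95% interval 0.0098 to 0.71, SE 0.16, limma adjusted p = 0.347), again with no overlap (exact permutation p = 0.0286). Groups without overlap made up 5.22% of all tested probes in MDPs and 11.1% in CDPs. In CDPs the size depends on 1 sample: without tumor-free replicate 3 the difference was 0.19, and within slides it was 0.08, 0.20 and 0.88, the last on the slide of that sample. In MDPs the differences within slides were 0.41, 0.71 and 0.38. Under the slide block the changes were 0.47 in MDPs and 0.44 in CDPs, and neither was called (limma adjusted p = 0.145 and 0.0908).

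Cyba encodes p22phox, the partner that keeps gp91phox stable in the membrane and docks the cytosolic subunits. Cyba had 2 probes. A_51_P131800 is the brighter and has no position in the array files, and A_55_P1979341 is placed on mm9 at chr8:124948726-124948785 on the minus strand. Over the 16 arrays the probes had a Pearson r of 0.85. The brighter read 3.99, 3.30, 4.07 and 3.77 in tumor-free MDPs and 3.69, 4.09, 3.67 and 4.05 in PyMT-B6 MDPs, and these groups overlapped widely. In CDPs it read 4.44, 4.32, 4.50 and 3.87 in tumor-free mice and 4.74, 4.61, 4.54 and 4.57 in PyMT-B6 mice. Every PyMT-B6 CDP sample was above every other sample of the 16.

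In PyMT-B6 mice Cyba rose from MDPs to CDPs by 0.74 (SE 0.19, 1.67-fold, limma adjusted p = 0.0314) at the brighter probe and by 0.63 (SE 0.16, 1.55-fold, limma adjusted p = 0.0315) at the other. At neither probe did the groups overlap, as for 14% of all tested probes in that comparison. In tumor-free mice the change was 0.50 (SE 0.19, limma adjusted p = 0.171) and 0.58 (SE 0.16, limma adjusted p = 0.0504), and it was not called at either. The brighter probe was lowest on slide 1 in every group present there, at 3.30 to 3.87, and the 2 PyMT-B6 MDP samples on that slide were the lower ones of their group. With the slide as a block its change in PyMT-B6 mice was 0.45 (limma adjusted p = 0.0298), under the fold limit and so not called, while the other probe had 0.62 (limma adjusted p = 0.0153) and was called. In tumor-free mice the block gave 0.50 (limma adjusted p = 0.00506) at the brighter probe and 0.58 (limma adjusted p = 0.00563) at the other, past the false discovery limit and under the fold limit. Within slides the brighter probe differed by 0.45 and 0.52 in PyMT-B6 mice and by 0.56, 0.51, 0.67 and 0.24 in tumor-free mice.

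No tumor change of Cyba was called. At the brighter probe it was 0.34 in CDPs (95% interval -0.07 to 0.75, limma adjusted p = 0.502) and 0.10 in MDPs (95% interval -0.32 to 0.51, limma adjusted p = 0.830). At the other probe it was 0.34 in CDPs (limma adjusted p = 0.386) and 0.29 in MDPs (limma adjusted p = 0.545). In CDPs the groups were apart at the brighter probe (exact permutation p = 0.0286) and overlapped at the other (exact permutation p = 0.171), and in MDPs it was the reverse, with 0.714 at the brighter and 0.0286 at the other. Of all tested probes 11.1% were without overlap in CDPs and 5.22% in MDPs. With the slide as a block the brighter probe differed by 0.19 in CDPs (95% interval -0.02 to 0.41, limma adjusted p = 0.254) and by 0.24 in MDPs (95% interval 0.025 to 0.45, limma adjusted p = 0.228). The block gave the other probe 0.34 in CDPs (95% interval 0.080 to 0.59, limma adjusted p = 0.108) and 0.29 in MDPs (95% interval 0.038 to 0.55, limma adjusted p = 0.216). The PyMT-B6 samples were the higher ones at both probes on each of the 3 slides that held both kinds of CDPs and the 3 that held both kinds of MDPs, by 0.048 to 0.57.

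The RefSeq promoter windows of Cybb and Cyba are shown because these genes code for the membrane pair. Their levels had a Pearson r of 0.72 over the 16 arrays, of 0.97 after the mean of each slide was removed and of -0.19 after the mean of each group was removed. The arrays share groups, slides and scaling, so r is given as a description only. Each window runs from 250 bases before to 50 bases after a transcript start on GRCm38.p6. The start used for Cybb lies inside the longest RefSeq interval of the gene, so the distances given for it are from that start and not from the outer end of the interval. Of the 5 genes Cybb, Cyba and Ncf1 were found in the RefSeq promoter table, and Ncf4 and Rac2 are only named. Capitals mark matches, on either strand, to GAGGAA or GGAAGT, purine-rich letters of the kind that PU.1 and other ETS factors bind, or to GAAANNGAA, the core of interferon response elements.
Cybb, chrX:9469275-9469574, minus strand: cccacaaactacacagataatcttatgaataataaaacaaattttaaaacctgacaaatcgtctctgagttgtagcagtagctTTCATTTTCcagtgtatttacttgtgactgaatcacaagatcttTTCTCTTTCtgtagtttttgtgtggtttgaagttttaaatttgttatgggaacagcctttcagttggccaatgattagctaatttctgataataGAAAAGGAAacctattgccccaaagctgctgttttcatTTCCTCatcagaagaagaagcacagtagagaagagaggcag
Cyba, chr8:122432891-122433190, minus strand: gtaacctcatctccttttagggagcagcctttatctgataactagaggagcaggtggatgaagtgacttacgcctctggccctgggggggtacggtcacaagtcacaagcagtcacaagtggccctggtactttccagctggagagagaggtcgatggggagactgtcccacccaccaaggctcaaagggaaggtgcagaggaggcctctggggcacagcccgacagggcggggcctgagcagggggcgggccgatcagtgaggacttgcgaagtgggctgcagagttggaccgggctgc
In the Cybb window GAAANNGAA matched 3 times, beginning 167 and 123 bases before the start on the opposite strand and 29 bases before it on the gene's own strand. GAGGAA matched once there, 9 bases after the start on the opposite strand. No matches of different motifs overlapped each other. The Cyba window held 0 matches, and that of Ncf1 held 1, to GAAANNGAA. Among all 32851 windows, GAGGAA was held by 28.3%, GGAAGT by 23.8% and GAAANNGAA by 8.56%. The letters shown were matched as text, and binding was not measured.

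Ncf4 encodes p40phox, a cytosolic subunit that binds a phosphoinositide on phagosomes. Its probe, A_51_P377452, is placed on mm9 at chr15:78092903-78092962 on the plus strand. In MDPs it read 2.89, 2.77, 2.99 and 2.98 in tumor-free mice and 2.88, 3.47, 3.10 and 3.19 in PyMT-B6 mice. In CDPs it read 3.35, 2.99, 3.56 and 2.87 in tumor-free mice and 3.73, 3.90, 4.06 and 3.55 in PyMT-B6 mice. The PyMT-B6 CDPs stood highest (mean 3.81 ± 0.22, SD, n = 4). The other means were 2.91 ± 0.10 in tumor-free MDPs, 3.16 ± 0.24 in PyMT-B6 MDPs and 3.19 ± 0.32 in tumor-free CDPs, and these 3 groups overlapped each other.

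In PyMT-B6 mice Ncf4 rose from MDPs to CDPs by 0.65 (SE 0.18, 1.57-fold, limma adjusted p = 0.0429), with no overlap of the groups. Of all tested probes 14% were without overlap in that comparison. In tumor-free mice the change was 0.29 (95% interval -0.10 to 0.67, limma adjusted p = 0.522). The call in PyMT-B6 mice lies close to its limits, and with the slide as a block the change was 0.53 (limma adjusted p = 0.0537). Within slides it was 0.59 and 0.36. Among the 5 genes Ncf4 had the largest tumor difference in CDPs, at 0.62 (95% interval 0.23 to 1.003, SE 0.18, 1.53-fold), with an unadjusted limma p of 0.00425 and an adjusted p of 0.110. The groups overlapped by 1 pair, as PyMT-B6 replicate 5 (3.55) lay just under tumor-free replicate 4 (3.56), and the exact permutation p was 0.0571. On the 3 slides with both kinds of CDPs the difference was 0.50, 0.20 and 0.82. The slide block gave 0.56 (limma adjusted p = 0.0356), past the false discovery limit but under the fold limit. In MDPs the tumor difference was 0.25 (limma adjusted p = 0.603).

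**Figure D2:**
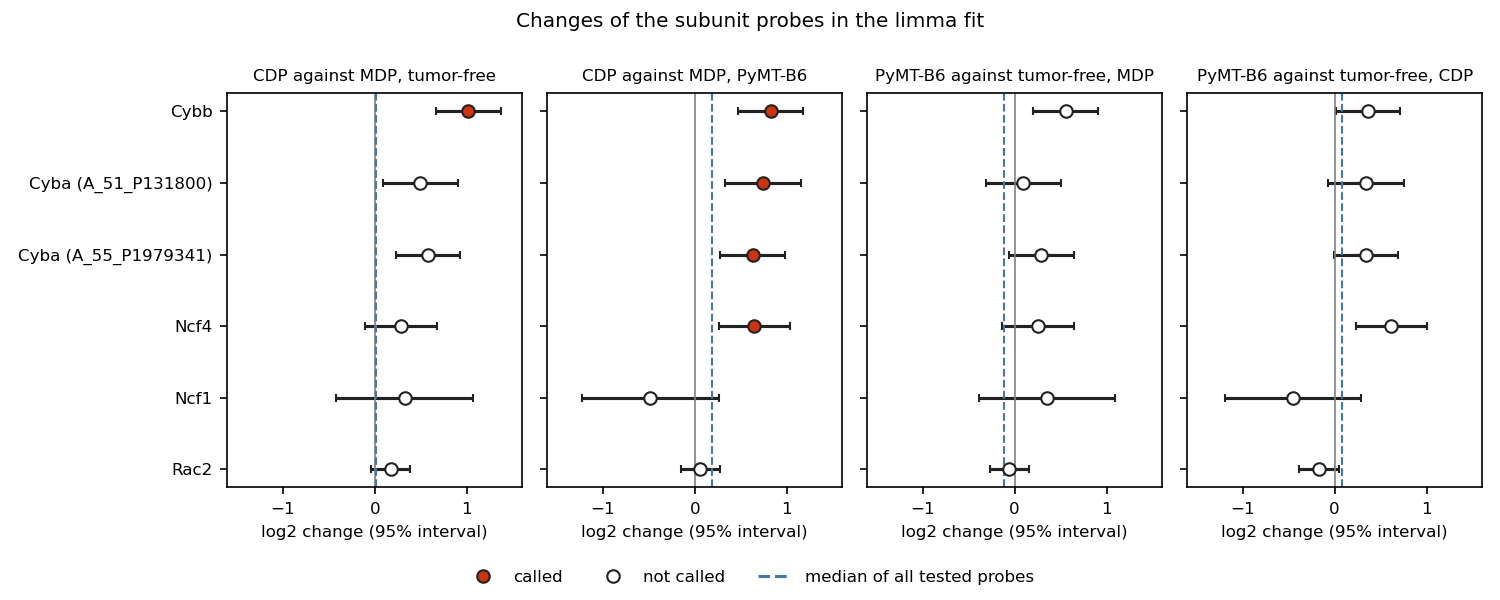
Log2 changes (horizontal axes) with 95% intervals from limma for the 6 probes in 4 comparisons of the 16 arrays, 4 samples a group; filled points were called and the dashed line is the median change of all 27432 tested probes. Cybb is called in both comparisons of CDPs with MDPs, the Cyba and Ncf4 probes in PyMT-B6 mice, and no probe between tumor states.

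Rac2 encodes a GTPase that helps to switch the oxidase on, and in hematopoietic cells it also acts on actin and migration. Its probe, A_51_P121891, is placed on mm9 at chr15:78391452-78391511 on the minus strand and is printed on 10 spots, whose SD within an array ran from 0.03 to 0.15. In MDPs it read 2.82, 2.85, 2.92 and 2.81 in tumor-free mice and 2.83, 2.76, 2.75 and 2.84 in PyMT-B6 mice. In CDPs it read 2.99, 3.01, 3.07 and 3.04 in tumor-free mice and 2.92, 2.83, 2.84 and 2.84 in PyMT-B6 mice. The 4 tumor-free CDP samples were the highest of the 16 and overlapped no other group, while the other groups overlapped each other.

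No Rac2 change was called. Tumor-free CDPs were above tumor-free MDPs by 0.17 (95% interval -0.04 to 0.39, SE 0.10, limma adjusted p = 0.444) and above PyMT-B6 CDPs by 0.17 (95% interval of the tumor change -0.39 to 0.04, limma adjusted p = 0.516), each with an exact permutation p of 0.0286. Groups without overlap made up 13.3% of tested probes in CDPs against MDPs of tumor-free mice and 11.1% in CDPs between tumor states. The tumor difference in CDPs was -0.23, -0.15 and -0.14 on the 3 slides that held both groups, and -0.18 with the slide as a block (limma adjusted p = 0.181). The SDs of Rac2 within groups were 0.03 to 0.05, lower than those of the other 5 probes in every group. In PyMT-B6 mice CDPs differed from MDPs by 0.060 (95% interval -0.15 to 0.27), where Cybb, Cyba and Ncf4 were called, and groups without overlap made up 14% of tested probes.

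Ncf1 encodes p47phox, the organizer whose phosphorylation brings the cytosolic complex to the membrane. Its probe, A_55_P2071466, is placed on mm9 at chr5:134696380-134696439 on the minus strand. In MDPs it read -1.40, -0.68, -1.39 and -1.05 in tumor-free mice and 0.12, -1.24, -0.66 and -1.32 in PyMT-B6 mice. In CDPs it read -0.83, -1.46, -0.96 and 0.02 in tumor-free mice and -0.81, -1.48, -1.38 and -1.37 in PyMT-B6 mice. The 4 groups overlapped, and the 4 highest samples were the 4 on slide 1, from -0.68 to 0.12, while the other 12 ran from -1.48 to -0.81. Of the variance of Ncf1 over the arrays 69.1% lay between slides and 18.03% between groups.

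No Ncf1 change was called. It was -0.45 between tumor states in CDPs (95% interval -1.19 to 0.29, limma adjusted p = 0.665) and 0.35 in MDPs (95% interval -0.39 to 1.09, limma adjusted p = 0.672). From MDPs to CDPs it was 0.32 in tumor-free mice (limma adjusted p = 0.845) and -0.48 in PyMT-B6 mice (95% interval -1.22 to 0.26, limma adjusted p = 0.327). The latter was 0.014 with the slide as a block (95% interval -0.54 to 0.57), and -0.14 and -0.04 within slides. The block gave 0.32 for the change in tumor-free mice (95% interval -0.16 to 0.80), -0.20 for the tumor change in CDPs (95% interval -0.70 to 0.29) and 0.11 for that in MDPs (95% interval -0.39 to 0.60).

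**Figure D3:**
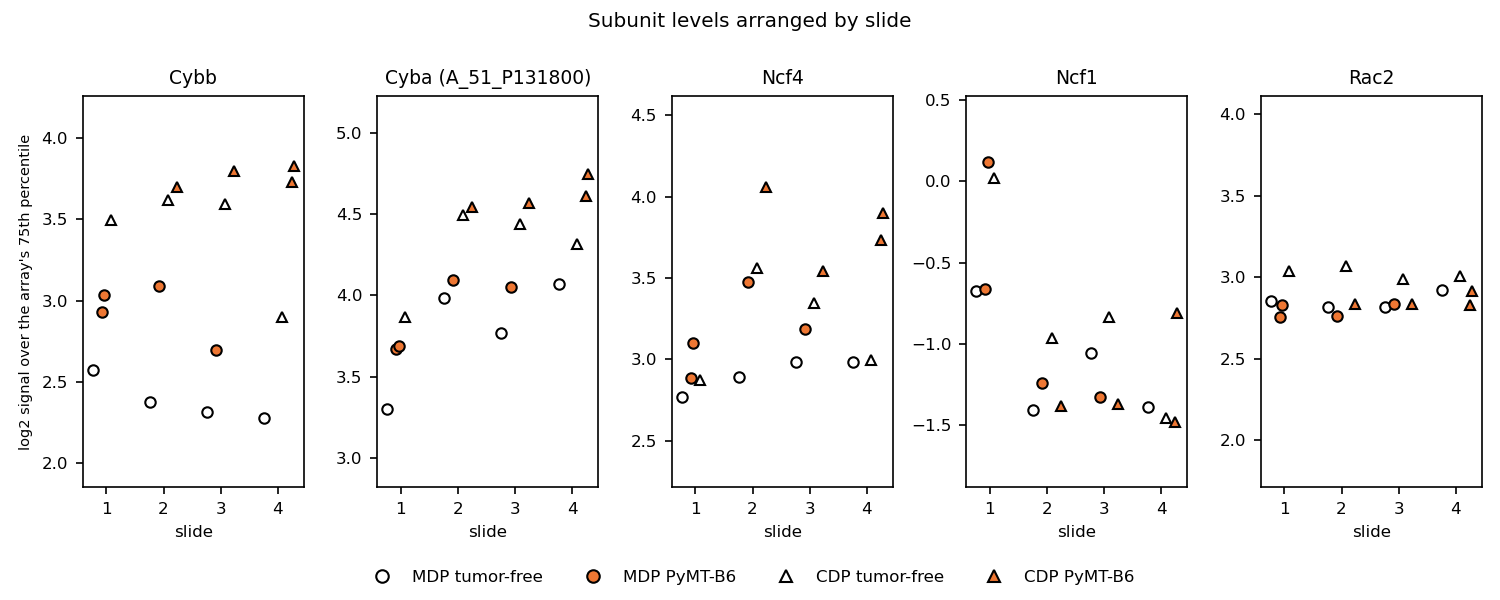
Levels of the 5 genes (brightest probe of each) as log2 processed signal over the 75th percentile of the array (vertical axis) on slides 1 to 4 (horizontal axis); each point is a sample, circles are MDPs, triangles CDPs, open symbols tumor-free mice and filled symbols PyMT-B6 mice. On every slide the CDP points of Cybb and Cyba lie above the MDP points of the same tumor state, and the 4 Ncf1 values on slide 1 lie above the other 12.

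Correlations among the subunits depended on whether slide or group means were removed. Over the 16 arrays Ncf4 had a Pearson r of 0.76 with Cybb and of 0.83 with Cyba, and of 0.84 and 0.78 with the slide means removed. Rac2 had an r between -0.05 and 0.31 with the other 4 genes. Ncf1 had -0.48 with Cyba and -0.42 with Ncf4, which became 0.38 and 0.09 with the slide means removed, where Ncf1 and Rac2 had 0.50. With the group means removed instead, r was 0.21 between Cybb and Ncf4, 0.61 between Cyba and Ncf4 and 0.54 between Cybb and Ncf1, and Ncf1 had -0.69 with Cyba and -0.52 with Ncf4. The group accounted for 89.5% of the variance of Cybb, 84.7% of Rac2, 72.7% of Ncf4 and 69.5% of Cyba at its brighter probe, and the slide for 1.88%, 5.48%, 33.3% and 57.7% of the same. Group and slide are not balanced, so these shares overlap.

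Among 15502 other genes with a value on every array, the 3 whose levels were most like those of Cybb were Pacc1 (r = 0.95), Anxa2 (r = 0.95) and Gpr141 (r = 0.94). For Cyba they were Syk, a kinase downstream of Fc receptors and integrins, with r = 0.97, Wfdc18 with r = 0.97 and Olfm1 with r = 0.96. For Ncf4 they were F10, Slc22a15 and Pycard, the adaptor of inflammasomes, with r between 0.94 and 0.96. For Rac2 they were Grk3, Rab33b and Padi2, with r between 0.91 and 0.95. With slide means removed F10 stayed the most like Ncf4 (r = 0.97), followed by Cebpb and Ctsc, while the 3 most like Cybb became Slfn2, Mcub and Adgre5 (r between 0.97 and 0.98) and those most like Cyba Slc16a3, Tlr13 and Mcub (r between 0.96 and 0.98). For Ncf1 the nearest were Ormdl1, Zfp617 and Fbxo8 (r between 0.91 and 0.92), none of which was among the nearest 3 once slide means were removed.

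Relatives and partners of the oxidase family made a list of their own. Of 13 listed genes 9 were tested, and none of the 9 was called in any of the 5 comparisons. Rac1 in PyMT-B6 mice (CDPs against MDPs, 0.46, limma adjusted p = 0.0652) and Rac3 in MDPs (PyMT-B6 against tumor-free, -0.98, limma adjusted p = 0.154) had an unadjusted limma p under 0.01. The share of all tested probes under that cut is not given. Under 0.05 it was 7627 of 27432 in the former comparison and 10.4% in the latter. Rac1 is the Rac GTPase of most tissues. Cybc1, the chaperone of the membrane pair, differed by 0.30 between CDPs and MDPs of PyMT-B6 mice (limma adjusted p = 0.186). The median over the 9 was 0.32 there and 0.18 in tumor-free mice, beside 0.19 and 0.02 over all tested probes.

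Receptors and kinases that start the oxidase, and its partners, made a list of 18 genes, all tested. From MDPs to CDPs 3 rose and 0 fell in tumor-free mice (median of the list 0.37), beside 6.07% of all tested probes called and a median of 0.02. In PyMT-B6 mice 3 rose and 1 fell (median 0.28), beside 7.24% and 0.19. Itgb2, the CD18 chain of the leukocyte integrins, rose by 1.55 in tumor-free mice (limma adjusted p = 1.8e-05) and by 1.36 in PyMT-B6 mice (limma adjusted p = 5.32e-05). In tumor-free mice the kinase Prkcd, which phosphorylates p47phox, rose by 0.76 and the Rac exchange factor Prex1 by 0.61 (limma adjusted p = 0.017 and 0.0165). In PyMT-B6 mice the IgG receptor Fcgr1 rose by 2.48 (limma adjusted p = 0.00989) and the kinase subunit Pik3cd by 0.68 (limma adjusted p = 0.0281). Hvcn1, the proton channel that balances the charge of the oxidase, fell by 0.84 there (limma adjusted p = 0.0311). In the other tumor state the means of Prkcd, Prex1, Fcgr1, Pik3cd and Hvcn1 moved the same way without a call. Hvcn1, for example, had -0.84 in CDPs and -0.16 in MDPs of tumor-free mice. None of the 18 was called for a difference of the change from MDPs to CDPs between tumor states. Without the arrays of slide 1 Pik3cd, Hvcn1 and Prex1 were no longer called, and Pik3cd was not called with the slide as a block either (limma adjusted p = 0.0506). The count of 4 called in PyMT-B6 mice became 2 without PyMT-B6 CDP replicate 3 or 5, and the 3 in tumor-free mice became 1 without tumor-free MDP replicate 4. Between tumor states none of the 18 was called in CDPs or MDPs (medians 0.07 and 0.01, beside 0.08 and -0.11 over all tested probes). S100a8, a calcium-binding protein abundant in neutrophils, differed by 2.19 in CDPs (limma adjusted p = 0.104) and by 1.96 in MDPs (limma adjusted p = 0.337).

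Genes that handle superoxide and peroxide were called between tumor states in CDPs. Of 26 listed genes 24 were tested, and in CDPs 5 rose and 0 fell in PyMT-B6 mice, beside 1.79% of all tested probes called. Of the 24 genes 20 were higher, with a median of 0.34 beside 0.08 over all tested probes. The plasma glutathione peroxidase Gpx3 rose by 1.15 (limma adjusted p = 0.0161), glutathione reductase Gsr by 1.13 (limma adjusted p = 0.00671) and thioredoxin reductase Txnrd1 by 0.81 (limma adjusted p = 0.0277). The peroxiredoxins Prdx6 and Prdx3, which reduce peroxides, rose by 0.70 and 0.63 (limma adjusted p = 0.0338 and 0.0262). All 5 were also called with the slide as a block. Without the arrays of slide 1 Gsr alone of these 5 was called, and Prdx6 was not called under quantile normalization and held in 14 of 29 alternatives. The count of 5 also became 1 when any 1 of tumor-free CDP replicates 2, 3 and 5 and PyMT-B6 CDP replicates 3 and 4 was left out, and 3 without tumor-free CDP replicate 4. In MDPs none of the 24 was called, and 21 of 24 were higher (median 0.22 beside -0.11). The tumor change was not called as different between CDPs and MDPs for any of the 24. From MDPs to CDPs in tumor-free mice Prdx6 fell by 0.69 and Txnrd1 fell by 0.83 (limma adjusted p = 0.0146 and 0.00844), the reverse of the direction of Cybb. These were the 2 called of the 24, beside 6.07% of all tested probes.

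Of 9 transcription factors known to act on subunit genes, all tested, none was called between tumor states. Over all tested probes 1.79% were called there in CDPs and 0.062% in MDPs. From MDPs to CDPs 1 of the 9 was called in each tumor state. The share of all tested probes called was 6.07% in tumor-free mice and 7.24% in PyMT-B6 mice. Spi1, which encodes PU.1, differed from MDPs to CDPs by 0.30 in tumor-free mice (limma adjusted p = 0.465) and by 0.36 in PyMT-B6 mice (limma adjusted p = 0.194), and Irf8 by 0.22 and 0.33 (limma adjusted p = 0.845 and 0.330). Cebpe, a factor of late granulocyte maturation, fell by 1.73 in tumor-free mice (limma adjusted p = 0.0131), and Hoxa10, known as a repressor of Cybb, fell by 2.30 in PyMT-B6 mice (limma adjusted p = 0.0149). Hoxa10 was well above background on only 1 of the 4 PyMT-B6 CDP arrays, its change ran from -2.73 to -0.83 over the alternatives, and without the arrays of slide 1 it was no longer called. Mean Hoxa10 levels were also lower in CDPs than in MDPs of tumor-free mice (-5.02 against -3.51). Those of Cebpe were also lower in CDPs of PyMT-B6 mice (-1.87 against -1.04). Neither was called there. Mean Hoxa9 levels were likewise lower in CDPs than in MDPs, without a call. They were -0.37 against 0.34 in tumor-free mice and -0.50 against 0.31 in PyMT-B6 mice. The part of these factors in the levels of the subunits was not tested. None of the 9 was called for a difference of the change from MDPs to CDPs between tumor states. The median of the 9 was 0.11 in tumor-free and 0.33 in PyMT-B6 mice, beside 0.02 and 0.19 over all tested probes.

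**Figure D4:**
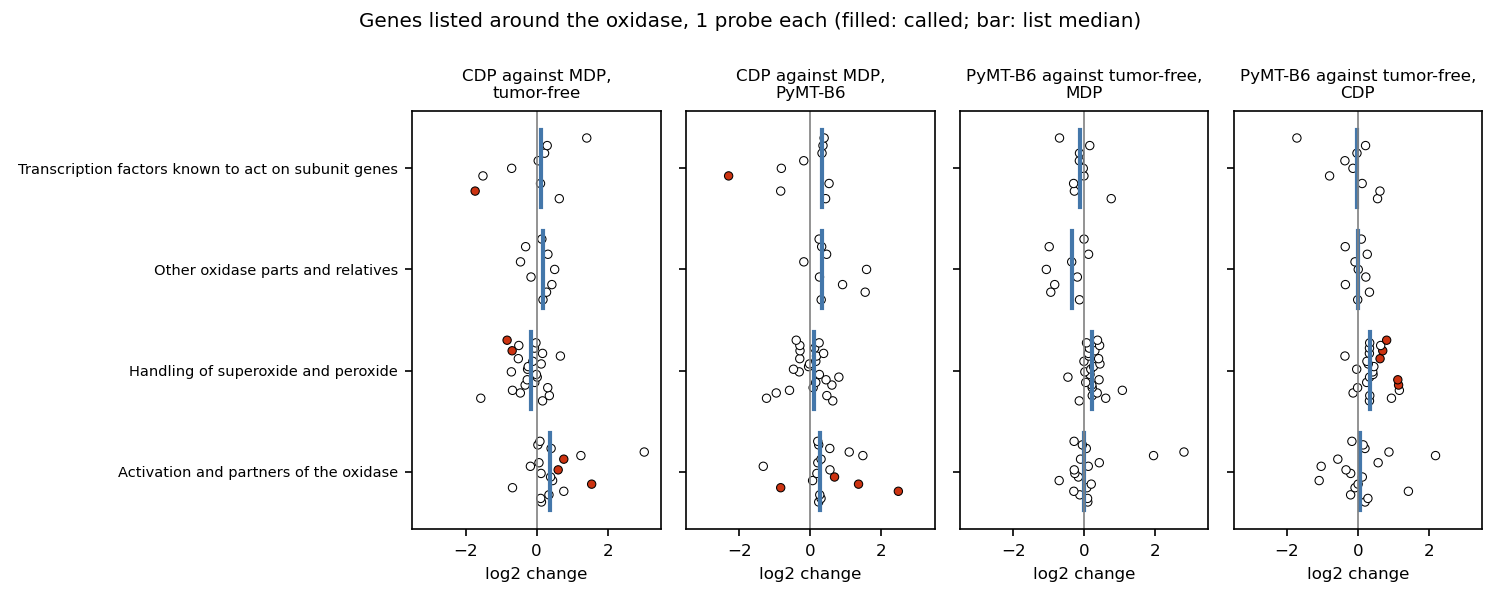
Log2 changes (horizontal axes) of the tested genes of 4 lists around the oxidase (rows) in 4 comparisons of 16 arrays, a point for each gene at its brightest tested probe; filled points were called and the bars are list medians. Filled points lie among activators and among transcription factors in both comparisons of CDPs against MDPs. Genes that handle peroxide have them in CDPs against MDPs of tumor-free mice and in CDPs of PyMT-B6 against tumor-free mice. None lie among the relatives of the oxidase.

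Mature phagocytes are known to hold much of this enzyme, and their markers are given beside the subunits. From MDPs to CDPs 6.07% of all tested probes were called in tumor-free mice and 7.24% in PyMT-B6 mice. Between tumor states 1.79% were called in CDPs and 0.062% in MDPs. Of 9 tested monocyte and macrophage markers, 3 rose from MDPs to CDPs in tumor-free mice (Lyz2 by 2.29, Ccr2 by 1.003 and Cd68 by 0.68). In PyMT-B6 mice 4 of the 9 rose (Lyz2 by 2.75, Fcgr1 by 2.48, Ccr2 by 0.80 and Cd68 by 0.78). The summed linear level of these 9, in multiples of the 75th percentile of the array, was 48.2 to 81.5 in tumor-free MDPs, 37.5 to 91.0 in PyMT-B6 MDPs, 60.5 to 96.1 in tumor-free CDPs and 86.6 to 116 in PyMT-B6 CDPs. The brightest probe weighs most in it, that of Itgam, with mean log2 levels of 5.36, 5.22, 5.46 and 5.88 in these groups. Itgam was not called in either comparison of CDPs with MDPs. Such sums were not adjusted for slide. Of 15 tested neutrophil and granule markers, 3 rose in CDPs of PyMT-B6 mice against tumor-free mice (Lcn2 by 2.70, Mmp8 by 1.87 and Elane by 1.12), and their summed level was 64.7 to 99.9 in tumor-free CDPs and 119 to 161 in PyMT-B6 CDPs, against 106 to 157 and 113 to 188 in the corresponding MDPs. From MDPs to CDPs 1 neutrophil marker rose (Mmp8 by 0.96) and 4 fell (Elane, Cxcr2, Cebpe and Prtn3, with changes of -1.85, -1.80, -1.73 and -0.85) in tumor-free mice, and in PyMT-B6 mice 2 rose (Mmp8 by 1.80 and Fcnb by 1.69) and 1 fell (Elane, -0.81). The 3 called in PyMT-B6 mice became 1 without PyMT-B6 MDP replicate 3 or PyMT-B6 CDP replicate 2 or 4, and the 5 in tumor-free mice became 3 without tumor-free MDP replicate 2, 4 or 5 or tumor-free CDP replicate 3. Of 7 tested markers of conventional dendritic cells, the lectin gene Cd209a alone was called from MDPs to CDPs in tumor-free mice, where it rose by 5.24. That count of 1 became 2 without slide 1. It also did so without PyMT-B6 MDP replicate 3 or 4, tumor-free CDP replicate 3 or PyMT-B6 CDP replicate 3. In PyMT-B6 mice 3 rose (Cd209a by 5.54, Zbtb46 by 1.76 and Sirpa by 0.78), and leaving out 1 array gave 2 to 3. Between tumor states Cd209a alone was called, and it fell by 3.25 in CDPs and by 3.55 in MDPs of PyMT-B6 mice. The count of 1 in MDPs became 0 in 5 of 29 alternatives. Cd209a was well above background on 0 of 4 PyMT-B6 MDP arrays. The summed level of these 7 was 6.03 to 6.71 in tumor-free MDPs, 4.63 to 6.22 in PyMT-B6 MDPs, 10.9 to 13.8 in tumor-free CDPs and 6.35 to 9.98 in PyMT-B6 CDPs. Ly6g and Ly6c2 had no probe under those names. The part of these markers in the levels of the subunits was not tested.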

How the data were processed

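Each array's deposited table is the output of Agilent Feature Extraction 11.5.1.1. It holds a processed spot intensity, which the authors' scanner software subtracted for background and detrended within the array without scaling between arrays, the mean spot and median background intensity before that, and flags, with probe positions on mm9. The authors also deposited a table of log2 values for 26793 probes. Its columns had slopes of 1.00 on the quantile-normalized log2 processed signal and medians of 10.2 to 10.3. It is therefore on the log2 scale and uncentered, its way of choosing probes is not given in the sources used here, and it served as an alternative.

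Groups follow the sample titles. Control spots and outlier spots (182 to 289 per array) were left out, spots of a probe were averaged, and a probe entered the tests if any group had it well above background on 3 or more of its 4 arrays. A model of the 4 group means was fitted by limma 3.58.1 (R 4.3.3, package data.table, 1.17.8), and changes were called at the false discovery rate and fold that the paper's methods name. The fits were tested on simulated data. The comparisons numbered 5. A gene with several probes is given by the brightest, with Cyba's other probe beside it, and the text names the 5 members, the called genes of the lists, and the 3 genes most alike. Some genes of the lists are not reported here and enter no count, median or sum. List genes outside that rule were named after their values were seen. The members, lists and tests were chosen with earlier results of these data known. Precision is limited by the number of arrays, and correlations of replicates were 0.904 to 0.977. Slides were read from the barcode in the array files. Alternatives were normexp (offset 50), quantile and median scaling, filters, the deposited log2 table, slide and replicate blocks, only the groups compared, the methods' t-test, other thresholds, the mean of a gene's probes and leaving out each array. Leaving out slide 1 was added after the data were seen. Deposited columns not used here numbered 0.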

Additional observations from a re-analysis of the deposited data

Results flagged for a closer look

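In groups of 4 samples a lone sample was taken as far from the others when its gap to the nearest, divided by the range of the group, was above Dixon's limit. Chance alone gives about 1 in 20 groups, and 3 of 24 groups (6 probes in 4 groups) passed. The Cybb level of tumor-free CDP replicate 3, 2.90 beside 3.49 to 3.62, had a gap share of 0.830. The Ncf1 level of PyMT-B6 CDP replicate 2, -0.81 beside -1.48 to -1.37, had 0.836. The Rac2 level of PyMT-B6 CDP replicate 2, 2.92 beside 2.83 to 2.84, had 0.914, and all of that group still lay under the tumor-free CDPs.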

How the results depend on the processing

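The number of subunits called was the same in every alternative for 4 of the 5 comparisons: 1 (Cybb) in CDPs against MDPs of tumor-free mice and 0 between tumor states and for their difference. The methods' t-test and the fit of only the groups compared give no value for that difference. In CDPs against MDPs of PyMT-B6 mice the count of 3 became 1 (Cybb) under quantile normalization, the slide block, the replicate block, a fit of only the groups compared and without slide 1, and 0 with the deposited log2 table. Leaving out 1 array gave 1 to 3, and 1 without PyMT-B6 MDP replicate 2 or 4 or PyMT-B6 CDP replicate 2 or 3. Cybb was called in 29 of these 30 alternatives, Cyba in 18 and Ncf4 in 12. Quantile normalization shifted the median of all tested probes in that comparison by -0.19, and the changes of Cybb, Cyba and Ncf4 became 0.70, 0.50 and 0.51. Of called probes in MDPs between tumor states 52.9% were higher, against 72.7% under quantile normalization, 71.4% with the deposited table, 66.7% under normexp and 35.6% with the slide block. Over all tested probes the calls ranged from 3 to 1251 (CDPs between tumor states, 491), 1 to 45 (MDPs, 17), 0 to 8 (their difference, 4), 1116 to 2923 (CDPs against MDPs, tumor-free, 1665) and 587 to 3276 (PyMT-B6, 1986) in the alternatives. Directions of the subunits turned only for changes that were not called. Cyba in MDPs between tumor states was -0.065 without tumor-free MDP replicate 3 (range over arrays left out -0.065 to 0.19). Cyba's difference of tumor changes was -0.0296 under quantile normalization, -0.0256 with the deposited table and -0.045 with the slide block. Ncf1 in CDPs against MDPs of PyMT-B6 mice was 0.014 with the slide block and 0.024 without slide 1, and its tumor change in MDPs was -0.00018 without slide 1. Rac2 in CDPs against MDPs of PyMT-B6 mice was -0.023 under quantile normalization and -0.011 with the deposited table. The cause of these shifts was not tested. Replicate numbers were not used as pairs in the main fit, and the labels do not say what they share. Same-numbered tumor-free and PyMT-B6 samples of a progenitor deviated together from their group means with r from -0.56 to 0.48. For same-numbered MDPs and CDPs of a tumor state r ran from -0.63 to 0.46. Of 16 arrays 4 were nearest to an array of their own number. Slide means were left in, so these values cannot decide whether samples were paired.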
